A study of Mus musculus with 21 samples.

Results

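The miR-181 family comprises the guide strands miR-181a-5p, miR-181b-5p, miR-181c-5p and miR-181d-5p, which are made from 3 loci in the mouse genome and share a seed, the bases by which a miRNA pairs with its targets. These 4 names, of the 1816 listed for both cohorts of the study, were chosen by name, and the family was selected on results obtained earlier from the same libraries. Its levels, differences and calls are therefore given as a description of these libraries. miRNAs are short RNAs processed from hairpin transcripts, and they guide Argonaute proteins to mRNAs that carry matches to the seed, which lowers the stability and translation of those mRNAs. miR-181 miRNAs are best known for tuning the sensitivity of T cell receptor signalling in developing lymphocytes, and they are also abundant in brain.

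The study asked what happens when *Zeb1* escapes repression by miR-200a/b, using knock-in mice in which the miR-200a/b sites of the *Zeb1* 3′ UTR carry point mutations. The alleles are present in every cell, so they are not specific to the pituitary. Small RNAs were sequenced from whole pituitaries of C57BL/6J females that were wild-type (WT), heterozygous (*Zeb1 200H*) or homozygous (*Zeb1 200M*) for the knock-in allele. The virgin cohort, 8 to 12 weeks old, had 3 WT, 4 *Zeb1 200H* and 4 *Zeb1 200M* libraries, and the cohort from the breeding trial, 28 to 36 weeks old, had 4 WT, 3 *Zeb1 200H* and 3 *Zeb1 200M* libraries. The cohorts also differed in breeding history, RNA input, sequencer and the miRNA dictionary used for counting (1909 names for the virgin mice, 1841 for the older ones), and these differences cannot be told apart from age.

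The mature sequences are shown because the counts rest on telling these strands apart by their first bases, and because the shared seed defines the family. They were taken from RefSeq (GRCm38.p6), with bases 2 to 8 in capitals.
miR-181a-5p: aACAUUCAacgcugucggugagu
miR-181b-5p: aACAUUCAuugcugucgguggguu
miR-181c-5p: aACAUUCAaccugucggugagu
miR-181d-5p: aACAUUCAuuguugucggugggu
The seed ACAUUCA was held by these 4 of the 1679 mature names in that table and by no other. Reads were assigned by matching their first 19 bases for virgin mice and their first 18 for mice of the breeding trial. Over both lengths, miR-181b-5p and miR-181d-5p differed at 1 position, C12U, counted from 1 at the 5′ end with the base of miR-181b-5p first. miR-181a-5p differed from miR-181b-5p at 2 positions and from miR-181d-5p at 3. miR-181c-5p differed from miR-181a-5p at 7 positions over 18 bases and 8 over 19, from miR-181d-5p at 8 and 9, and from miR-181b-5p at 9 and 10.

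The 6 hairpins lie in pairs (GRCm38, GENCODE annotation). On chromosome 1, plus strand, *Mir181a-1* (ENSMUSG00000065565) spans 137966455 to 137966541 and *Mir181b-1* (ENSMUSG00000065458) spans 137966639 to 137966718, with 97 bases between them. This pair lies in an intron of *Gm4258* on the same strand and overlaps an exon of the lincRNA *A430106G13Rik*. On chromosome 2, plus strand, *Mir181a-2* (ENSMUSG00000065423) spans 38852735 to 38852810 and *Mir181b-2* (ENSMUSG00000065578) spans 38853830 to 38853918, 1019 bases apart, in an intron of *Nr6a1* but on the opposite strand. On chromosome 8, minus strand, *Mir181c* (ENSMUSG00000065483) spans 84178873 to 84178961 and *Mir181d* (ENSMUSG00000076338) spans 84178716 to 84178787, 85 bases apart, in an intron of *Nanos3* on the same strand. Because miR-181a-5p has the same sequence from chromosomes 1 and 2, as does miR-181b-5p, their reads cannot be divided between these loci, whereas miR-181c-5p and miR-181d-5p come from chromosome 8.

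**Figure D1:**
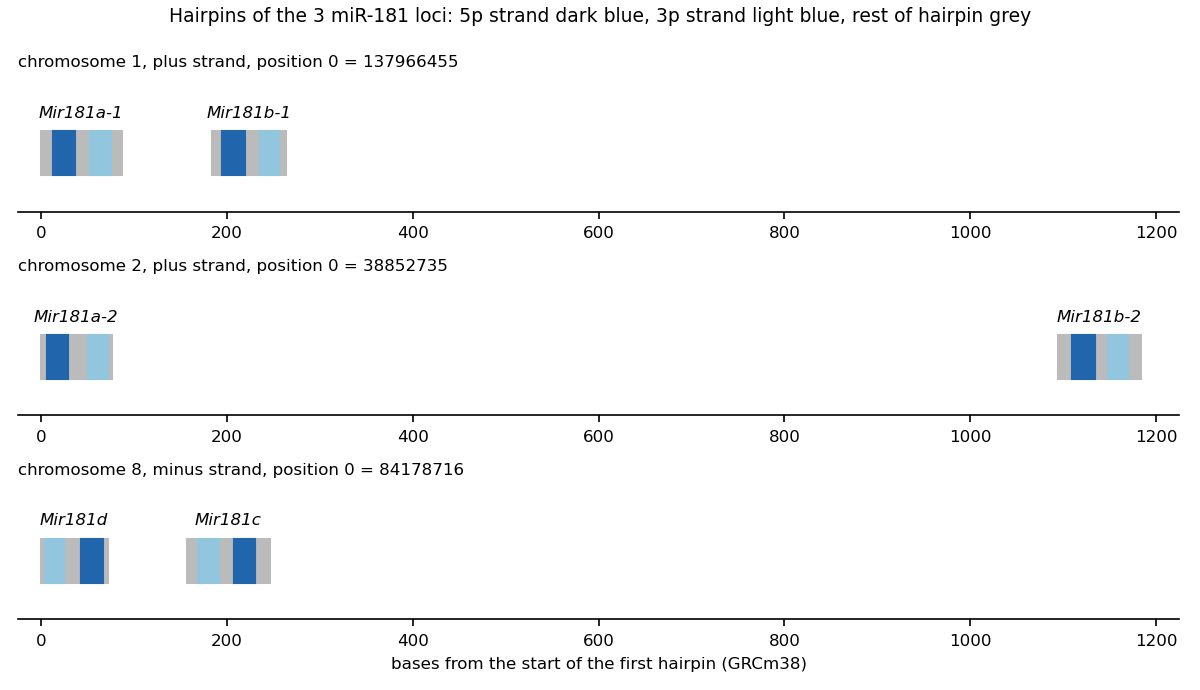
Map of the 3 miR-181 loci, with position in bases from the start of the first hairpin on the horizontal axis, the 5p strand in dark blue, the 3p strand in light blue and the rest of each hairpin in grey. The hairpins of a pair are 97 bases apart on chromosome 1, 1019 on chromosome 2 and 85 on chromosome 8.

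Virgin libraries held 3816917 to 10806313 counted reads, and breeding trial libraries 60037 to 191650. Virgin WT replicate 1 stood apart from the other virgin libraries. It was the shallowest of them, with 3816917 reads, 36.9% of its reads fell in its 3 most abundant miRNAs against 24.5% to 28.1% in the others, and its TMM factor, which scales a library so that most miRNAs match between libraries, was 0.616 against 0.943 to 1.12. Differences from virgin WT fitted with edgeR and TMM, and calls for the marker lists, are therefore also given without this library. Levels below are in CPM, a library's counts scaled to the same total of counted reads in every library, without TMM scaling, and are compared between strands with no correction for ligation. Counting intervals cover counting error only.

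miR-181a-5p was the most abundant of the family. In virgin WT replicates 1, 2 and 4 its level was 10045, 6854 and 7071 CPM, which placed it 20th, 33rd and 32nd among all miRNAs. It was 4577, 4299, 3463 and 4697 CPM in the virgin *Zeb1 200H* libraries and 5107, 4741, 4370 and 5319 CPM in the virgin *Zeb1 200M* libraries. Every mutant library lay below every WT library, also with WT replicate 1 left aside, and the mutant groups overlapped each other. Its level in the breeding trial cohort was 5539, 6468, 6350 and 4232 CPM in WT, 3809, 5163 and 4097 CPM in *Zeb1 200H*, and 4198, 4316 and 4193 CPM in *Zeb1 200M*. There WT replicate 4 was low and fell inside the range of the mutants, while the other WT libraries lay above all mutant libraries. In whole tissue, fewer cells of a type and less RNA per cell cannot be told apart.

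miR-181b-5p, the other strand of the chromosome 1 and 2 hairpin pairs, was next. Its level in virgin WT was 1903, 1886 and 1859 CPM, against 1337, 1263, 992 and 1449 CPM in *Zeb1 200H* and 1501, 1430, 1295 and 1567 CPM in *Zeb1 200M*. The virgin WT libraries lay close together in CPM, replicate 1 included, and above all mutant libraries. Breeding trial WT libraries had 1462, 1685, 1665 and 1132 CPM, *Zeb1 200H* libraries 1245, 1599 and 1515 CPM, and *Zeb1 200M* libraries 1266, 1272 and 1327 CPM. WT replicate 4 was again the lowest WT library, and the genotypes overlapped.

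miR-181c-5p, from chromosome 8, was at 1161, 972 and 980 CPM in virgin WT, 903, 780, 876 and 855 CPM in *Zeb1 200H*, and 880, 887, 831 and 996 CPM in *Zeb1 200M*. The *Zeb1 200H* libraries lay below WT, and *Zeb1 200M* replicate 4 lay inside the WT range. Breeding trial values were 621, 693, 678 and 814 CPM in WT, 618, 849 and 822 CPM in *Zeb1 200H*, and 776, 789 and 790 CPM in *Zeb1 200M*. All 3 groups overlapped, and WT replicate 4, low for miR-181a-5p and miR-181b-5p, was here the highest WT library.

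miR-181d-5p, the other chromosome 8 strand, was the least abundant. It was at 724, 437 and 465 CPM in virgin WT, 411, 374, 433 and 459 CPM in *Zeb1 200H*, and 383, 404, 378 and 522 CPM in *Zeb1 200M*. Replicate 1 accounted for the high end of WT, and the other WT libraries overlapped both mutant groups. Breeding trial libraries had 324, 342, 404 and 324 CPM in WT, 336, 200 and 411 CPM in *Zeb1 200H*, and 365, 354 and 480 CPM in *Zeb1 200M*, and all groups overlapped.

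**Figure D2:**
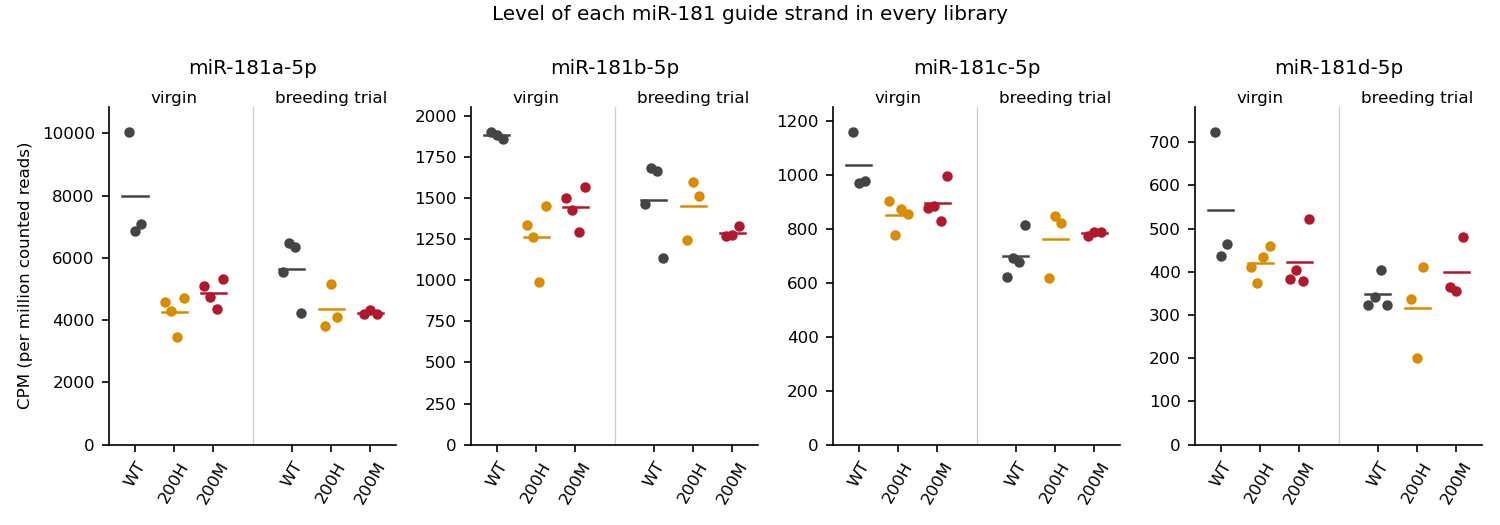
Level of each guide strand in every library, in CPM on linear axes from 0, by genotype and cohort. Points are libraries and short lines group means, and in CPM every virgin mutant library lies below every virgin WT library for miR-181a-5p and miR-181b-5p, while in the breeding trial cohort the genotypes overlap for all 4 strands.

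The order of the strands, a over b over c over d, was the same in 21 of 21 libraries, and neighbours in this order did not overlap within any group. Summed over the 4 strands, the level in virgin mice was 11452 ± 2065 CPM (SD, n = 3) in WT, 6792 ± 752 CPM (n = 4) in *Zeb1 200H* and 7653 ± 647 CPM (n = 4) in *Zeb1 200M*. Without replicate 1 the virgin WT mean was 10262 ± 160 CPM (n = 2). It was, among breeding trial mice, 8183 ± 1256 CPM (n = 4) in WT, 6889 ± 902 CPM (n = 3) in *Zeb1 200H* and 6709 ± 95.2 CPM (n = 3) in *Zeb1 200M*.

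Counted by non-overlap in CPM, all mutant libraries lay below all WT libraries for 2 of the 4 strands in virgin *Zeb1 200M*, where 4.57% of all miRNAs tested did so. In virgin *Zeb1 200H* this held for 3 of 4, miR-181c-5p being the third, against 4.76% of all. Among breeding trial mice it held for 0 of 4 in *Zeb1 200M*, against 9.06% of all, and for 0 of 4 in *Zeb1 200H*, against 5.99%. TMM-scaled values gave more. In virgin mice they added miR-181c-5p in *Zeb1 200M*, against 12.1% of all, and miR-181d-5p in *Zeb1 200H*, against 11.9%. Among breeding trial mice, miR-181a-5p and miR-181b-5p then lay below all WT libraries in *Zeb1 200M*, against 19.6% of all, and 0 of 4 did in *Zeb1 200H*, against 10.9%.

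Differences between genotypes were then estimated with edgeR on all miRNAs, with TMM scaling, and called at a Benjamini-Hochberg adjusted p below 0.05. Such calls weigh a difference against the spread between mice. All 4 guide strands passed the filter on low counts in each comparison. Positive and negative values are log2 fold changes, each with its SE.

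For virgin *Zeb1 200M* against WT, 2 of the 4 strands were called lower, while 3.83% of the 678 miRNAs tested were called lower. miR-181a-5p was at −1.20 ± 0.29 and miR-181b-5p at −0.81 ± 0.20, both with an adjusted p between 0.01 and 0.05. miR-181c-5p, at −0.67 ± 0.24, and miR-181d-5p, at −0.86 ± 0.34, were not called. The median of the 4 strands was −0.84, and that of all miRNAs tested −0.0025. Without WT replicate 1 the values were smaller and their errors too: −0.67 ± 0.09 for miR-181a-5p and −0.53 ± 0.10 for miR-181b-5p, both called, and −0.28 ± 0.10 for miR-181c-5p and −0.25 ± 0.14 for miR-181d-5p, not called. In that fit 10.5% of 703 miRNAs were called lower. With all libraries, leaving out any of the 4 *Zeb1 200M* libraries gave 0 called strands (2 to 4 at an unadjusted p under 0.05 in edgeR), with miR-181a-5p at −1.26 to −1.15 and miR-181b-5p at −0.87 to −0.76, and leaving out WT replicate 2 or 4 gave 1. Calls over all miRNAs fell too. Lower calls went from 26 to between 16 and 19 without a *Zeb1 200M* library, and to 23 and 21 without WT replicate 2 and 4.

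For virgin *Zeb1 200H* against the same WT libraries, 2 of the 4 strands were called lower, against 3.42% of 672 miRNAs. miR-181a-5p was at −1.35 ± 0.30 and miR-181b-5p at −0.96 ± 0.21, again with an adjusted p between 0.01 and 0.05, and miR-181c-5p at −0.69 ± 0.24 and miR-181d-5p at −0.83 ± 0.33 were not called. The median was −0.90, and that of all miRNAs tested 0.0062. Without WT replicate 1, 3 of 4 were called lower, against 11% of 699 miRNAs: miR-181a-5p at −0.84, miR-181b-5p at −0.70 and miR-181c-5p at −0.32, with miR-181d-5p at −0.23 not called. Leaving out any of the 4 *Zeb1 200H* libraries gave 0 called strands (2 to 3 at an unadjusted p under 0.05 in edgeR), with miR-181a-5p at −1.41 to −1.27 and miR-181b-5p at −1.05 to −0.88. In those fits 16 to 17 of all miRNAs tested were called lower, against 23 with all libraries.

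For breeding trial *Zeb1 200M* against WT, 2 of the 4 strands were called lower, against 15.6% of 276 miRNAs. miR-181a-5p was at −0.64 ± 0.12 and miR-181b-5p at −0.42 ± 0.14, the latter with an adjusted p between 0.01 and 0.05. miR-181c-5p at −0.08 ± 0.15 and miR-181d-5p at −0.0054 ± 0.19 were not called, and both became positive when libraries were scaled by total reads alone, miR-181d-5p also with TMM computed without the miR-200 superfamily. With total reads alone miR-181a-5p was at −0.41 and called, and miR-181b-5p at −0.19 and not called. The median was −0.25, and that of all miRNAs tested 0.00035. miR-181b-5p was no longer called without WT replicate 2 (−0.34) or without any of the 3 *Zeb1 200M* libraries (−0.42 to −0.40). miR-181a-5p was called with each library left out in turn.

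For breeding trial *Zeb1 200H* against WT, 1 of the 4 strands was called lower, against 7.12% of 267 miRNAs. This was miR-181a-5p, at −0.55 ± 0.14, with an adjusted p between 0.01 and 0.05. It was no longer called with total reads alone (−0.38), without *Zeb1 200H* replicate 1 (−0.45) or without *Zeb1 200H* replicate 4 (−0.49). miR-181b-5p was at −0.20 ± 0.16, miR-181d-5p at −0.21 ± 0.22 and miR-181c-5p at −0.07 ± 0.18, the last becoming positive with total reads alone. The median was −0.20, and that of all miRNAs tested 0.0038.

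Between the mutants, 0 of the 4 strands were called in virgin mice, where edgeR called 2.22% of 675 miRNAs in either direction, and 0 of 4 in the breeding trial cohort, where it called 1.09% of 274. At an unadjusted p under 0.05 the number was 0 in both cohorts, and DESeq2 and limma also called 0. Values for *Zeb1 200M* against *Zeb1 200H* ran from −0.05 for miR-181d-5p to 0.15 for miR-181b-5p in virgin mice, and from −0.20 for miR-181b-5p to 0.22 for miR-181d-5p in the breeding trial cohort. Each was smaller in size than 2 of its SE. With the replicate block in edgeR, 2 strands had an unadjusted p under 0.05 in virgin mice and 0 were called.

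The scaling moved these values. With total reads alone in place of TMM, the median of all miRNAs tested shifted to 0.34 for virgin *Zeb1 200M* and 0.29 for virgin *Zeb1 200H* against WT, and to 0.23 and 0.18 in the breeding trial cohort. Expressed as the log2 ratio of mean summed level, the 4 strands together were at −1.05 in virgin *Zeb1 200M* and −1.18 in virgin *Zeb1 200H* with TMM, and at −0.58 and −0.75 with total reads alone. Without WT replicate 1 the TMM values were −0.60 and −0.73. They were, for the breeding trial cohort, −0.50 and −0.42 with TMM, and −0.29 and −0.25 with total reads alone.

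Ratios of strands within a library do not depend on scaling. For each library, the reads of miR-181a-5p and miR-181b-5p (chromosomes 1 and 2) were divided by those of miR-181c-5p and miR-181d-5p (chromosome 8). In virgin mice this ratio was 6.34, 6.21 and 6.18 in WT, 4.50, 4.82, 3.40 and 4.68 in *Zeb1 200H*, and 5.23, 4.78, 4.68 and 4.54 in *Zeb1 200M*. The mutants did not overlap WT, and replicate 1 lay with the other WT libraries. The mean log2 ratio differed from WT by −0.38 for homozygotes and −0.53 for heterozygotes, larger than the SD within any of the 3 groups (0.02 to 0.23), and by −0.37 and −0.52 without WT replicate 1. In the breeding trial cohort the ratio was 7.41, 7.87, 7.41 and 4.72 in WT, 5.30, 6.44 and 4.55 in *Zeb1 200H*, and 4.79, 4.89 and 4.35 in *Zeb1 200M*. Here WT replicate 4 lay among the mutants, and the differences of −0.53 in *Zeb1 200M* and −0.32 in *Zeb1 200H* stood beside an SD of 0.34 in WT. Without WT replicate 4 they were −0.70 and −0.49, and without any other WT library both were smaller in size than with all libraries. WT replicate 4 was the deepest library of that cohort. Each *Zeb1 200H* library lay below the WT library of the same replicate number, at 5.30 against 7.41, 6.44 against 7.41 and 4.55 against 4.72. Shared replicate numbers were not shown to pair mice, so this order does not remove the overlap between the groups. The values 4.55 and 4.72, both of replicate 4, were also not separated by counting error. Counting intervals for the percentage of family reads from chromosome 8 were 15.6% to 20.7% in that *Zeb1 200H* library and 15.4% to 19.7% in that WT library.

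Most reads in this sum are of miR-181a-5p, and the contrast was weaker for the less abundant strands. Reads of miR-181b-5p per read of miR-181d-5p overlapped between WT and mutants in each cohort. For virgin mice this ratio was 2.63, 4.32 and 4.00 in WT, with replicate 1 far below the others, 2.29 to 3.38 in heterozygotes and 3.00 to 3.92 in homozygotes. The overlap there came from WT replicate 1 alone, and the other virgin WT libraries lay above all virgin mutants. Its mean log2 value differed from WT by −0.05 for homozygotes (SD 0.16, and 0.39 in WT) and −0.26 for heterozygotes, and by −0.27 and −0.48 without WT replicate 1. For the older mice the difference was −0.38 in homozygotes and 0.18 in heterozygotes, where replicate 3, with 12 reads of miR-181d-5p, was at 8.00. The positive sign in heterozygotes rests on that library, since replicates 1 and 4 were at 3.70 and 3.69, below the WT mean of 4.27.

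Put as a share of family reads, miR-181c-5p and miR-181d-5p made up 13.6% to 13.9% in virgin WT, 16.1% to 18.1% in virgin homozygotes and 17.2% to 22.7% in virgin heterozygotes. In breeding trial WT replicate 4 the share was 17.5% (218 of 1246 reads, 95% Clopper-Pearson interval 15.4% to 19.7%), against 11.3% to 11.9% in the other WT libraries, whose highest upper limit was 14.4%. The breeding trial mutants ranged from 13.4% (63 of 469 reads, interval 10.5% to 16.9%) to 18.7%. A ratio of this kind shows unequal change and does not show which strands moved.

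Within the chromosome 1 and 2 pairs, the reads of miR-181a-5p per read of miR-181b-5p were compared in the same way, a ratio singled out after its values were seen. In virgin mice it was 5.28, 3.63 and 3.80 in WT, 3.42, 3.41, 3.49 and 3.24 in *Zeb1 200H*, and 3.40, 3.31, 3.38 and 3.39 in *Zeb1 200M*. WT replicate 1 was far above the rest, and all WT libraries lay above all mutants. The mean log2 ratio differed from WT by −0.31 for homozygotes and −0.30 for heterozygotes, and by −0.14 and −0.13 without WT replicate 1. Breeding trial libraries had 3.79, 3.84, 3.81 and 3.74 in WT, 3.06, 3.23 and 2.70 in *Zeb1 200H*, and 3.32, 3.39 and 3.16 in *Zeb1 200M*, again without overlap. For this ratio WT replicate 4 lay with the other WT libraries. By contrast, reads of miR-181c-5p per read of miR-181d-5p overlapped between WT and mutants in both cohorts, from 1.61 to 2.30 in virgin mice and from 1.64 to 4.25 in the breeding trial cohort.

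**Figure D3:**
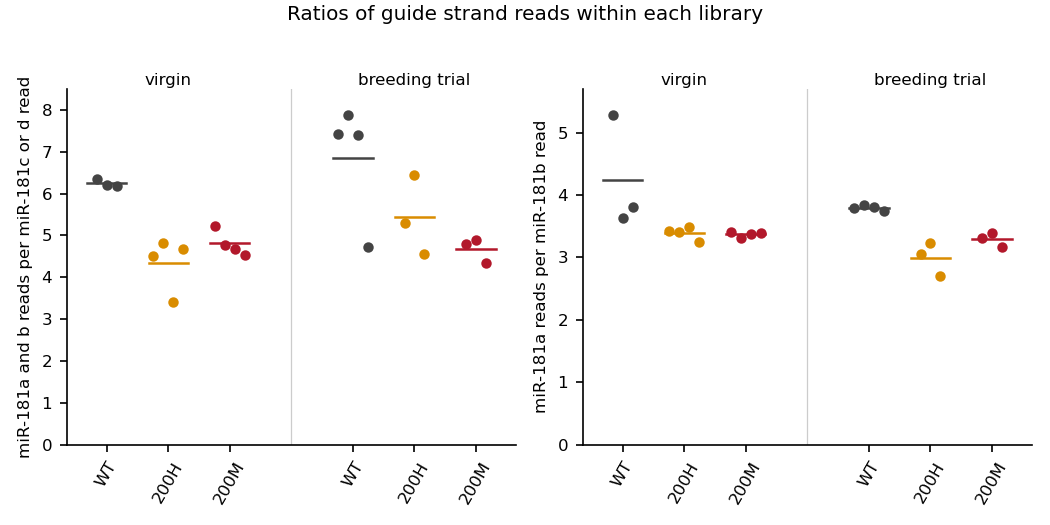
Ratios of guide strand reads within each library, by genotype and cohort, on linear axes from 0, with points for libraries and short lines for group means. Left, reads of miR-181a-5p and miR-181b-5p per read of miR-181c-5p or miR-181d-5p, where breeding trial WT replicate 4 lies at 4.72 among the mutants; right, reads of miR-181a-5p per read of miR-181b-5p, where virgin WT replicate 1 lies at 5.28.

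The passenger strands, from the other arm of each hairpin, differ by locus and so could mark it, but they were rare. The most read were miR-181c-3p (3207 reads over the 11 virgin libraries) and miR-181a-1-3p (2016 reads), the latter from chromosome 1. Both are shown because their seeds match and their first bases differ little: over the 19 bases matched in virgin libraries they differ at 2 positions, and over 18 at 1, U16G, counted as above with miR-181a-1-3p first.
miR-181a-1-3p: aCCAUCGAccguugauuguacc
miR-181c-3p: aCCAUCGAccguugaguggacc
miR-181b-1-3p had 93 reads, miR-181d-3p 59 and miR-181b-2-3p 33. miR-181a-2-3p, from chromosome 2, had 0 reads in all 11 virgin libraries. A count of 3, taken as the floor, would be 0.278 CPM in the deepest of these and 0.786 CPM in the shallowest. Among breeding trial libraries it had 1 read, in WT replicate 4. Whether the matching could detect this strand in virgin libraries was not tested, so its count of 0 does not show that the locus is silent. In the breeding trial cohort all passenger strands were at 40 reads or fewer over 10 libraries, and none passed the filter.

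miR-181a-1-3p in virgin mice was at 7.86, 27.8 and 27.7 CPM in WT, and the mutants ranged from 16.7 to 20.9 CPM (*Zeb1 200H*) and from 16.5 to 23.5 CPM (*Zeb1 200M*). Replicate 1, high for miR-181a-5p, was low for this strand. It held 1278 reads of miR-181a-5p per read of miR-181a-1-3p, against 247 and 255 in the other WT libraries and 208 to 308 in the mutants. The corresponding ratio of miR-181c-5p to miR-181c-3p was 56.1 in WT replicate 1, 25.7 and 25.7 in the other WT libraries, and 25.5 to 31.2 in the mutants. With all libraries the 3 passenger strands tested lay between −0.49 and −0.18 against WT and were not called by edgeR, whereas limma with quality weights called miR-181a-1-3p and miR-181c-3p lower in both mutants, among 87 of 678 miRNAs called lower in that fit for homozygotes and 69 of 672 for heterozygotes. Without WT replicate 1, miR-181a-1-3p (−0.71 in homozygotes, −0.75 in heterozygotes) and miR-181c-3p (−0.44 and −0.47) were called lower by edgeR, as were 10.5% and 11% of all miRNAs tested.

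Whether the effect of genotype differed between cohorts was tested as an interaction in edgeR on the names shared by both cohorts. For *Zeb1 200M* against WT, 0 of 264 miRNAs were called (0%), 17 had an unadjusted p under 0.05, and 0 of these were miR-181 strands. For *Zeb1 200H* against WT, 0 of 255 were called (0%), 17 had an unadjusted p under 0.05, and 1 of these was a miR-181 strand. The breeding trial value exceeded the virgin value by 0.40 to 0.87 for the 4 strands in homozygotes, and by 0.50 to 0.73 in heterozygotes. Without virgin WT replicate 1 these differences were 0.01 to 0.23 and 0.02 to 0.49. With total reads alone they were 0.18 to 0.57 and 0.28 to 0.55. The tests shifted with a library left out. The number of miRNAs with an unadjusted p under 0.05 ran from 10 to 45 in homozygotes, with 0 to 3 miR-181 strands among them, and from 7 to 50 in heterozygotes, with 1 to 3 miR-181 strands. The highest numbers came without virgin WT replicate 2 or 4. No miRNA was called except 1 of 253 in homozygotes without breeding trial WT replicate 1, where 0 miR-181 strands had an unadjusted p under 0.05.

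Likeness of profile was measured as the root mean square difference from miR-181a-5p in log2 TMM-scaled CPM, centred within each cohort, over 21 libraries and 249 other miRNAs. miR-181b-5p was nearest (0.17). The 5 nearest outside the family were miR-375-3p (0.20), miR-335-5p (0.21), miR-541-5p, miR-672-5p and miR-194-5p (each 0.25). miR-181c-5p ranked 14th and miR-181d-5p 29th. Counting error alone adds to this difference for strands with few reads. In breeding trial libraries miR-181d-5p had 12 to 62 reads and miR-181c-5p 51 to 156, against 310 to 856 for miR-181a-5p. Its part in these ranks and those that follow was not tested. Without virgin WT replicate 1, miR-181b-5p was again nearest (0.12), the 5 outside the family were miR-375-3p, miR-494-3p, miR-92a-3p, miR-335-3p and miR-335-5p, and miR-181c-5p and miR-181d-5p ranked 51st and 100th.

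Lists of miRNAs known as markers of cell types were summed in each library, since whole pituitary holds several cell types. Sums are in CPM without TMM scaling, and calls are from edgeR with TMM. For comparison, edgeR called 2.65% of all miRNAs tested higher in virgin *Zeb1 200M* and 1.64% in virgin *Zeb1 200H* (13.4% and 10.6% without WT replicate 1), and 20.3% in breeding trial *Zeb1 200M* and 4.87% in breeding trial *Zeb1 200H*. The endocrine list was led by miR-7a-5p (mean 124175 CPM in virgin and 117402 CPM in breeding trial libraries), so markers of the labelled tissue were present. Its sum in virgin mice was 368951, 269425 and 273145 CPM in WT, 264186, 253180, 277444 and 264282 CPM in *Zeb1 200H*, and 231804, 256743, 235527 and 279905 CPM in *Zeb1 200M*. In the breeding trial cohort it was 308200, 288001, 314366 and 290890 CPM in WT, 289256, 270783 and 263402 CPM in *Zeb1 200H*, and 253157, 260271 and 246486 CPM in *Zeb1 200M*. WT replicate 1 was the highest virgin library, virgin groups otherwise overlapped, and breeding trial *Zeb1 200M* lay below WT. The median fitted value of its 3 members against virgin WT was −0.79 in homozygotes and −0.64 in heterozygotes, beside −0.84 and −0.90 for the miR-181 guide strands. Without WT replicate 1 it was −0.20 and −0.07, beside −0.40 and −0.51 for those strands. Against breeding trial WT it was −0.45 in homozygotes and −0.16 in heterozygotes. Of the 3 members, 0 were called in virgin mice. Without WT replicate 1, 1 was called lower in each mutant, miR-375-3p, where 10.5% (homozygotes) and 11% (heterozygotes) of all miRNAs tested were. In the older mice 2 were called lower in *Zeb1 200M*, against 15.6% of all, and 1 in *Zeb1 200H*, against 7.12%.

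The neuronal list, led by miR-153-3p, summed to 7419, 10446 and 10832 CPM in virgin WT, 14127, 14708, 14790 and 15689 CPM in *Zeb1 200H*, and 19132, 16881, 18612 and 15062 CPM in *Zeb1 200M*. Its breeding trial sums were 13168, 13034, 11226 and 13723 CPM in WT, 18709, 15624 and 18946 CPM in *Zeb1 200H*, and 23943, 23319 and 23956 CPM in *Zeb1 200M*. All mutants lay above WT in both cohorts. Of its 10 virgin names, 2 were called higher in each mutant, both of them forms of miR-124-3p, and 4 higher and 1 lower in each without WT replicate 1. Of 8 names tested in the breeding trial cohort, 3 were called higher and 1 lower in *Zeb1 200M*, and 1 higher in *Zeb1 200H*.

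The glial list, led by miR-338-3p, summed to 459, 610 and 603 CPM in virgin WT, 752, 809, 787 and 765 CPM in *Zeb1 200H*, and 837, 817, 805 and 738 CPM in *Zeb1 200M*. Among breeding trial mice it summed to 1184, 869, 821 and 1096 CPM in WT, 1300, 1283 and 1828 CPM in *Zeb1 200H*, and 1722, 1514 and 1588 CPM in *Zeb1 200M*. Mutants lay above WT in CPM in both cohorts, though the median fitted value of the list in virgin mice was −0.19 in homozygotes and −0.09 in heterozygotes (0.04 and 0.12 without WT replicate 1), with 0 of 2 members called in virgin mice (1 higher in each mutant without WT replicate 1) and 1 of 2 called higher in breeding trial *Zeb1 200M* (0 in *Zeb1 200H*).

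The immune list, led by a form of miR-142a-3p in virgin mice and by miR-146a-5p in the breeding trial cohort, summed to 1332, 1564 and 1718 CPM in virgin WT, 1641, 2293, 2185 and 2047 CPM in *Zeb1 200H*, and 2282, 1851, 2097 and 2053 CPM in *Zeb1 200M*. Its breeding trial sums were 1229, 1527, 1261 and 1633 CPM in WT, 2218, 2199 and 1987 CPM in *Zeb1 200H*, and 2715, 2230 and 2541 CPM in *Zeb1 200M*. Apart from virgin *Zeb1 200H* replicate 1, mutants lay above WT. Of 7 virgin names 0 were called (without WT replicate 1, 1 higher in *Zeb1 200M* and 2 in *Zeb1 200H*), and of 5 tested in the breeding trial cohort 2 were called higher in *Zeb1 200M* and 1 in *Zeb1 200H*, with miR-155-5p at 0 in a breeding trial library.

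The endothelial list, led by miR-126a-3p, summed to 6081, 6158 and 5281 CPM in virgin WT, 6972, 7501, 6704 and 6740 CPM in *Zeb1 200H*, and 7555, 7288, 7003 and 7371 CPM in *Zeb1 200M*. Breeding trial sums were 6341, 6504, 6279 and 6590 CPM in WT, 9327, 8212 and 8871 CPM in *Zeb1 200H*, and 9707, 9824 and 8745 CPM in *Zeb1 200M*. Mutants lay above WT in CPM in both cohorts, though the median fitted value in virgin mice was −0.22 in homozygotes and −0.24 in heterozygotes (0.21 and 0.15 without WT replicate 1). In edgeR, 2 of 2 members were called higher in breeding trial *Zeb1 200M*, with 0 called in breeding trial *Zeb1 200H* and in virgin mice, where WT replicate 1 made no difference to these counts.

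The smooth muscle list, led by miR-145a-5p, summed to 1867, 2306 and 2395 CPM in virgin WT, 3697, 3187, 2017 and 3527 CPM in *Zeb1 200H*, and 4412, 4159, 2020 and 3807 CPM in *Zeb1 200M*. Breeding trial sums for it were 3669, 3967, 4091 and 3788 CPM in WT, 4645, 4464 and 5163 CPM in *Zeb1 200H*, and 6217, 5564 and 5659 CPM in *Zeb1 200M*. Replicate 3 of each virgin mutant lay inside the WT range, and all other mutants lay above WT. Of its 2 members, 1 was called higher in virgin *Zeb1 200M*, 0 in virgin *Zeb1 200H* (1 without WT replicate 1), 2 in breeding trial *Zeb1 200M* and 0 in breeding trial *Zeb1 200H*.

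The red blood cell list, led by miR-451a, summed to 5292, 7749 and 9781 CPM in virgin WT, 8591, 18824, 10964 and 10040 CPM in *Zeb1 200H*, and 10013, 9559, 9533 and 11282 CPM in *Zeb1 200M*. Its breeding trial sums were 5934, 8364, 5767 and 6006 CPM in WT, 6727, 8711 and 7402 CPM in *Zeb1 200H*, and 7198, 7980 and 10871 CPM in *Zeb1 200M*. WT and mutants overlapped in both cohorts, and 0 members were called except 1 of 2 tested, higher, in breeding trial *Zeb1 200M*.

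The miR-200 superfamily, the loop that the knock-in alleles disturb, was led by miR-141-3p in virgin mice and by miR-200c-3p in the breeding trial cohort. It summed to 68794, 55783 and 55350 CPM in virgin WT, 13260, 11592, 14142 and 12254 CPM in *Zeb1 200H*, and 6981, 6687, 6655 and 7186 CPM in *Zeb1 200M*. Breeding trial sums were 63399, 61385, 63775 and 63522 CPM in WT, 12491, 12609 and 13311 CPM in *Zeb1 200H*, and 7152, 8189 and 7622 CPM in *Zeb1 200M*. All 5 members were called lower in both mutants of both cohorts, with and without virgin WT replicate 1. No listed member was at 0 in all libraries of a cohort, and 1 red blood cell member, miR-486a-5p, had no name in the breeding trial dictionary. The CPM sums of several lists differed between WT and mutants, and their part in the result was not tested.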

How the data were processed

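Small RNA libraries of pituitary were used as 21 samples in 2 cohorts. The authors trimmed reads with cutadapt, matched their first 19 (virgin) or 18 (breeding trial) bases to a miRNA dictionary, removed spike-ins and size standards, and deposited the raw count of each miRNA. The deposited signal values, which the authors scaled with DESeq2 size factors, and their fold changes were not used. Breeding trial libraries were made from 0.5 μg of RNA with yeast carrier. Here, genotypes were compared pairwise, separately by cohort, over all miRNAs in edgeR 4.0.16 under R 4.3.3. The fits used TMM, a filter at a count of 10 and a total of 15, then the F test of the quasi-likelihood model. They were first run on simulated counts with known changes and the same spread in all libraries. Those counts held no library set apart like virgin WT replicate 1, so they do not vouch for fits that include it. Alternatives used DESeq2 1.42.0, limma 3.58.1 (voom with quality weights), other scalings, no filter, a fit of all genotypes, replicate numbers as a block, and each library left out. Residuals of libraries with the same replicate number correlated positively in every pair only for breeding trial *Zeb1 200H* against WT (r from 0.10 to 0.19 over 3 pairs). Values this low do not show that libraries were paired. In virgin *Zeb1 200M* against *Zeb1 200H*, r ran from −0.0081 to 0.22 over 4 pairs. Named strands were all miR-181 strands in the tables, the 5 nearest profiles and the marker lists. The members and lists were chosen with earlier results of these data known. Log2 levels used a prior count of 2.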

Additional observations from a re-analysis of the deposited data

Results flagged for a closer look

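In 5 of 62 groups of 4 libraries, the highest or lowest library lay farther from the rest than such a gap usually does. Chance gives about 1 such group in 20. In breeding trial WT, replicate 4 was low in reads of miR-181a-5p and miR-181b-5p per read of miR-181c-5p or miR-181d-5p (4.72, the others from 7.41 to 7.87) and in reads of miR-181a-5p per read of miR-181c-5p (5.20, the others from 8.92 to 9.37). These ratios share reads. In virgin *Zeb1 200M*, replicate 1 was high in reads of miR-181a-5p per read of miR-181c-5p (5.80, the others from 5.26 to 5.35). In breeding trial WT, replicate 2 was high in the red blood cell list (8364 CPM, the others from 5767 to 6006 CPM) and low in the miR-200 superfamily list (61385 CPM, the others from 63399 to 63775 CPM).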

How the results depend on the processing

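miR-181a-5p and miR-181b-5p were negative against WT in both mutants of both cohorts under all 8 other settings and with each library left out. The number of strands called changed more. For virgin *Zeb1 200M* it was 2, and became 0 with DESeq2 size factors in edgeR, 1 with total reads alone, 1 with TMM computed without the miR-200 superfamily, 1 with no filter, 0 with the replicate block, 3 in the fit of all genotypes, 3 with voom, and 0 to 2 with a library left out. Fitted values with DESeq2 size factors were −1.23 for miR-181a-5p and −0.84 for miR-181b-5p, and miR-181a-5p, the call lost with TMM without the miR-200 superfamily, was at −1.21 there. With the block, miR-181a-5p was at −1.03 and miR-181b-5p at −0.72. The call lost with no filter and with total reads alone was miR-181b-5p, at −0.72 and −0.38. Calls over all miRNAs in this comparison, 44 of 678, also moved. They were 39 of 678 with DESeq2 size factors, 58 with total reads alone, 41 with TMM without the miR-200 superfamily and 46 of 1318 with no filter. The block gave 20 of 678, the fit of all genotypes 90 of 704 and voom 184 of 678. For virgin *Zeb1 200H* the number of strands called was 2, and became 1 with total reads alone, 0 with the replicate block, 3 with voom, and 0 to 3 with a library left out, while calls over all miRNAs went from 34 of 672 to 42 with total reads alone, 18 with the block and 152 with voom. With the block, miR-181a-5p was at −1.15 and miR-181b-5p at −0.84, and miR-181b-5p, the call lost with total reads alone, was at −0.58 there. For breeding trial *Zeb1 200M* the number of strands called was 2, and became 1 with total reads alone and 1 to 2 with a library left out. For breeding trial *Zeb1 200H* it was 1, and became 0 with total reads alone and 0 to 1 with a library left out. Leaving a library out fits fewer samples. For the other changes the cause was not tested.

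The log2 ratio of summed level moved to −0.58 in virgin *Zeb1 200M* and −0.29 in breeding trial *Zeb1 200M* with total reads alone, and ran from −1.24 to −0.60 in virgin *Zeb1 200M* with a library left out. Ratios of miR-181a-5p and miR-181b-5p to the chromosome 8 strands kept their direction in all 42 values with a library left out. The leave-out values for marker lists, for miR-181a-5p per miR-181b-5p and for miR-181b-5p per miR-181d-5p without virgin WT replicate 1 were chosen after seeing the data.

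Signs changed for small values. With total reads alone, miR-181b-1-3p became 0.10 in virgin *Zeb1 200M* against WT and miR-181d-5p 0.0089 in virgin *Zeb1 200M* against *Zeb1 200H*. In the breeding trial cohort against WT, miR-181c-5p became 0.15 in *Zeb1 200M* and 0.10 in *Zeb1 200H*, and miR-181d-5p 0.23 in *Zeb1 200M*. With the replicate block, breeding trial miR-181c-5p in *Zeb1 200M* against WT became 0.021. miR-181d-5p in that comparison became 0.023 with TMM without the miR-200 superfamily, 0.0064 in the fit of all genotypes and 0.0038 with voom. For virgin *Zeb1 200M* against *Zeb1 200H*, voom gave −0.021 for miR-181c-5p, −0.014 for miR-181a-1-3p and −0.023 for miR-181c-3p. The cause was not tested.

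With a library left out, miR-181b-1-3p in virgin *Zeb1 200M* against WT ran from −0.40 to 0.072. In virgin *Zeb1 200M* against *Zeb1 200H*, miR-181c-5p ran from −0.039 to 0.074, miR-181d-5p from −0.17 to 0.022, miR-181a-1-3p from −0.11 to 0.11 and miR-181c-3p from −0.095 to 0.097. In breeding trial *Zeb1 200M* against WT, miR-181c-5p ran from −0.14 to 0.051 and miR-181d-5p from −0.14 to 0.078, and in *Zeb1 200H* against WT miR-181c-5p ran from −0.15 to 0.072. In breeding trial *Zeb1 200M* against *Zeb1 200H*, miR-181a-5p ran from −0.15 to 0.073 and miR-181c-5p from −0.11 to 0.10.

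Total reads alone also changed the balance of all calls against WT, from 26 lower and 18 higher to 19 and 39 in virgin *Zeb1 200M*, from 23 and 11 to 21 and 21 in virgin *Zeb1 200H*, from 43 and 56 to 26 and 83 in breeding trial *Zeb1 200M*, and from 19 and 13 to 15 and 53 in breeding trial *Zeb1 200H*. Depth limits the breeding trial cohort, where the 4 strands together had 469 to 1246 reads in a library and passenger strands could not be compared.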
